A study of Mus musculus with 24 samples.

Results

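The enzymes described here make asparagine, alanine, aspartate, proline and cysteine, or break down the cysteine store glutathione, in cultured osteoblasts (OBs) that produce normal or mutant type I procollagen. Their 8 genes, *Asns*, *Gpt2*, *Got1*, *Pycr1*, *Aldh18a1*, *Cth*, *Cbs* and *Chac1*, were taken by symbol from the 55335 genes counted in each library. Each symbol had 1 entry, and no exon base of these 8 genes was shared with another annotated gene. The cultures came from parietal bones of 4 to 5 days old pups, either WT (C57BL/6J) or heterozygous (Het) for G610C, which puts cysteine in place of a glycine of the helix-forming part of the α2 chain (*Col1a2*) of procollagen I, kept on the C57BL/6J background. Both genotypes were grown in the same medium with ascorbic acid 2-phosphate under osteogenic differentiation, and polyadenylated RNA was sequenced in bulk on culture days 8, 14 and 21, in 4 wells per genotype and day (24 libraries). Cells were pooled from several pups of a genotype before plating, so that p-values measure the spread between wells and not that between animals. The mutation is in the germline, and the wells were mixed, holding some cells that are not collagen producers.

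Asparagine synthetase (*Asns*) moves an amide nitrogen from glutamine onto aspartate. *Got1* and *Gpt2* encode aminotransferases that exchange the amino group of glutamate with that of aspartate in the cytosol and of alanine in mitochondria. *Aldh18a1* encodes the enzyme that commits glutamate to proline synthesis, and *Pycr1* the mitochondrial enzyme of its last step. Collagen I is rich in proline, and OBs that secrete it have a high demand for this amino acid. *Cbs* and *Cth* encode the consecutive steps that turn homocysteine and serine into cysteine, and *Chac1* encodes a cytosolic enzyme that cleaves glutathione. Several of these genes are textbook targets of ATF4, the transcription factor translated preferentially during the integrated stress response (ISR), which binds with C/EBP partners to elements of the form TGATGNAAN.

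The promoter windows of 5 of these genes are shown because they hold, or lack, this element in genes that changed or did not change between genotypes. Each window runs from 250 bases before to 50 after the gene start in RefSeq (GRCm38.p6), is written 5′ to 3′ on the strand of the gene, and has TGATGNAAN or its reverse complement in capitals. *Asns* (chr6:7693160-7693459, minus strand), *Got1* (chr19:43524556-43524855, minus strand), *Chac1* (chr2:119350992-119351291, plus strand), *Pycr1* (chr11:120643699-120643998, minus strand) and *Gpt2* (chr8:85492326-85492625, plus strand) read as follows.
Asns: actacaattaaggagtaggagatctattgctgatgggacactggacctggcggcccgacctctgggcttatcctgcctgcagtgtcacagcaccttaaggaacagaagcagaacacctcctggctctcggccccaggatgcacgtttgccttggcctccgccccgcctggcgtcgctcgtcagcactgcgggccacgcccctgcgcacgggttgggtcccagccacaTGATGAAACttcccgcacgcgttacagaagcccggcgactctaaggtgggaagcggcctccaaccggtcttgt
Got1: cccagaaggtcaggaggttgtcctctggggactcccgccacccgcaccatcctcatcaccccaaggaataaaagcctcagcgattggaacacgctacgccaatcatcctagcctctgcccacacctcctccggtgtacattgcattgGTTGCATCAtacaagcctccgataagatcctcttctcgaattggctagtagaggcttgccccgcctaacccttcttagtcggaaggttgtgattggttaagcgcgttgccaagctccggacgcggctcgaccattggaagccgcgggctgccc
Chac1: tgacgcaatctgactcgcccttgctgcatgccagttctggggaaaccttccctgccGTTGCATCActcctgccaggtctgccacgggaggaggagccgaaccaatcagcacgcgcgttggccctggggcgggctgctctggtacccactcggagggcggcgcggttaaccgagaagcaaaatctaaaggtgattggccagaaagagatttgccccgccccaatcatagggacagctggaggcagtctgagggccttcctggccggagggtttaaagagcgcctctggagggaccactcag
Pycr1: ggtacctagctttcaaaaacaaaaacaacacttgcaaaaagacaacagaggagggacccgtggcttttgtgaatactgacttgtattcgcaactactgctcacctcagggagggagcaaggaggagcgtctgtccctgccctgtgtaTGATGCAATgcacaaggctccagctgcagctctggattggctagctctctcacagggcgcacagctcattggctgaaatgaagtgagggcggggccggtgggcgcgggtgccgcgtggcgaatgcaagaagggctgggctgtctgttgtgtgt
Gpt2: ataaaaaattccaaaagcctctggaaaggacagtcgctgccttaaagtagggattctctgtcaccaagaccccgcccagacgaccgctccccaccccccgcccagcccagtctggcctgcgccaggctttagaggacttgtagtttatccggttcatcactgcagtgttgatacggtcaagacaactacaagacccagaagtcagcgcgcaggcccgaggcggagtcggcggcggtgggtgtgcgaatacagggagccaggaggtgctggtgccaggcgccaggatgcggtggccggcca
In *Asns* the match reads TGATGAAAC and begins 23 bases before the RefSeq gene start. By the GENCODE coordinates used below, in which *Asns* starts at 7693254 on the minus strand, the match lies inside the gene. The matches of *Got1* and *Chac1* lie on the opposite strand, read TGATGCAAC there, and have their first printed base 103 and 194 bases before the start. *Pycr1* has TGATGCAAT 103 bases before the start on its own strand. Of the 7 members with a window in RefSeq (there is none for *Cth* here), these 4 held TGATGNAAN on either strand, against 3.95% of 32851 windows of this length. The stricter word TGATGCAA, which lies inside the first and is searched on both strands, was in 3 of the 7 (*Got1*, *Chac1* and *Pycr1*) against 0.895% of all windows. The palindrome TGACGTCA, the CRE, was in 0 of the 7 and in 1.79% of all windows. These matches are letters in a window and not evidence of binding.

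The libraries held 17140202 to 59734231 counts, and the 6 numbered replicate 1 held 17140202 to 25825762. Replicate 1 also stood apart in its cell markers. The summed relative quantity (RQ, the count of a gene relative to that of 4 housekeeping genes, *Sdha*, *Mrfap1*, *Actb* and *Actg1*, taken as their geometric mean in the same library) of 6 cartilage markers at days 14 and 21 was 12.7 to 25.5 in replicate 1 of both genotypes, 6.39 to 14.6 in WT replicates 2 to 4 and 1.64 to 2.88 in Het replicates 2 to 4. Of the 6 OB markers 0 were at 0 in any group, and their summed RQ at days 14 and 21 was 101 to 186 in WT and 95.6 to 149 in Het. Within replicates 2 to 4 it was 153 to 182 in WT and 107 to 127 in Het at day 14. At day 21 it was 175 to 186 and 113 to 149 in these replicates. The summed RQ of 8 macrophage and osteoclast markers at days 14 and 21 was 1.23 to 2.28 in WT and 1.31 to 3.16 in Het, of 5 adipocyte markers 0.156 to 0.349 and 0.121 to 0.453, of 4 endothelial markers 0.00185 to 0.00369 and 0.00347 to 0.00513, of 5 muscle markers 2.77 to 4.68 and 2.91 to 4.96, and of 3 fibroblast markers 0.00633 to 0.0117 and 0.00283 to 0.0311. Within replicates 2 to 4 the macrophage and osteoclast sum at day 14 was 1.23 to 1.34 (WT) and 1.98 to 2.24 (Het). At day 21 it was 2.02 to 2.28 and 2.68 to 3.16. The fibroblast sum in these replicates was 0.0108 to 0.0117 and 0.0150 to 0.0311 at day 14. At day 21 that sum was 0.00688 to 0.0100 and 0.0213 to 0.0270. Replicate 1 at day 14 had 1.63 (WT) and 1.31 (Het) for the former and 0.00987 and 0.00283 for the latter. By the edgeR test described below, 2 of 6 OB markers (*Bglap*, *Runx2*) and 1 of 6 cartilage markers (*Sox9*) were lower in Het at these days, 4 of 8 macrophage and osteoclast markers were higher and 1 lower, 1 endothelial and 1 fibroblast marker was higher, and 0 adipocyte or muscle markers were called. No marker was at 0 throughout a group at days 14 and 21. At day 8, where none of the 8 enzyme genes was called, *Ptprc* was the 1 marker called among the OB, cartilage and macrophage lists (log2 fold change 1.79, adjusted p = 0.0289). The median log2 fold change at day 8 was 1.21 for the macrophage and osteoclast markers, −0.63 for the OB markers and −0.96 for the cartilage markers, against −0.07 for all genes. The cartilage sum at day 8 was 21.1 to 26.3 in WT replicates 2 to 4, 5.74 to 17.4 in Het replicates 2 to 4 and 34.4 to 35.6 in replicate 1. The part of these markers in the results below was not tested. In bulk libraries, fewer cells of a type and less RNA per cell cannot be told apart. RQ ratios and ratios of related genes pooled over days 14 and 21 are therefore accompanied by those of replicate 1 alone and of replicates 2 to 4 alone.

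Per kilobase of exon the 8 transcripts spanned a wide range. In WT at days 14 and 21 the mean RQ per kilobase was 0.0774 ± 0.0108 (SD, n = 8) for *Aldh18a1*, 0.0750 ± 0.00876 for *Asns*, 0.0512 ± 0.00287 for *Pycr1*, 0.0391 ± 0.00595 for *Chac1*, 0.0196 ± 0.00184 for *Got1*, 0.0117 ± 0.00152 for *Gpt2*, 0.00219 ± 0.000348 for *Cth* and 0.000317 ± 0.0000686 for *Cbs*. *Aldh18a1* and *Asns* differed by less than their SD, and the other neighbors in this order were farther apart than the SD of either. In Het, *Asns* (0.120 ± 0.0277) stood above *Aldh18a1* (0.0872 ± 0.0119) and *Chac1* (0.0674 ± 0.00876) above *Pycr1* (0.0488 ± 0.00477). At day 8 in WT, *Chac1* was at 0.00727 ± 0.00395 (n = 4), close to *Gpt2* at 0.00671 ± 0.000297. *Cbs* had 18 to 64 counts per library and *Cth* 42 to 647, so that both rest on few reads, while the lowest count of the other 6 was 187.

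At days 14 and 21, transcripts for asparagine, alanine and aspartate synthesis (*Asns*, *Gpt2*, *Got1*), for cysteine synthesis (*Cth*) and for glutathione breakdown (*Chac1*) were higher in Het than in WT, by 1.51-fold to 3.10-fold in mean RQ. The proline genes *Aldh18a1* and *Pycr1* and the cystathionine-forming *Cbs* were not called. This comparison addresses how OBs with misfolding procollagen differ from WT once matrix synthesis is established. By edgeR's quasi-likelihood test, 5 of the 8 were called higher and 0 lower at an adjusted p under 0.05, where 7.22% of the 20287 genes tested were called higher and 8.05% lower. The median log2 fold change of the 8 was 0.62, and that of all genes tested was −0.05. The same 5 had an RQ ratio above 1.2 with a two-sided exact permutation p under 0.05 over 8 and 8 libraries (8 tests, unadjusted), a rule that 5.86% of the tested genes met. All 8 Het libraries lay above all 8 WT libraries for *Asns* and *Chac1*, which held for 0.389% of the tested genes.

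**Figure D1:**
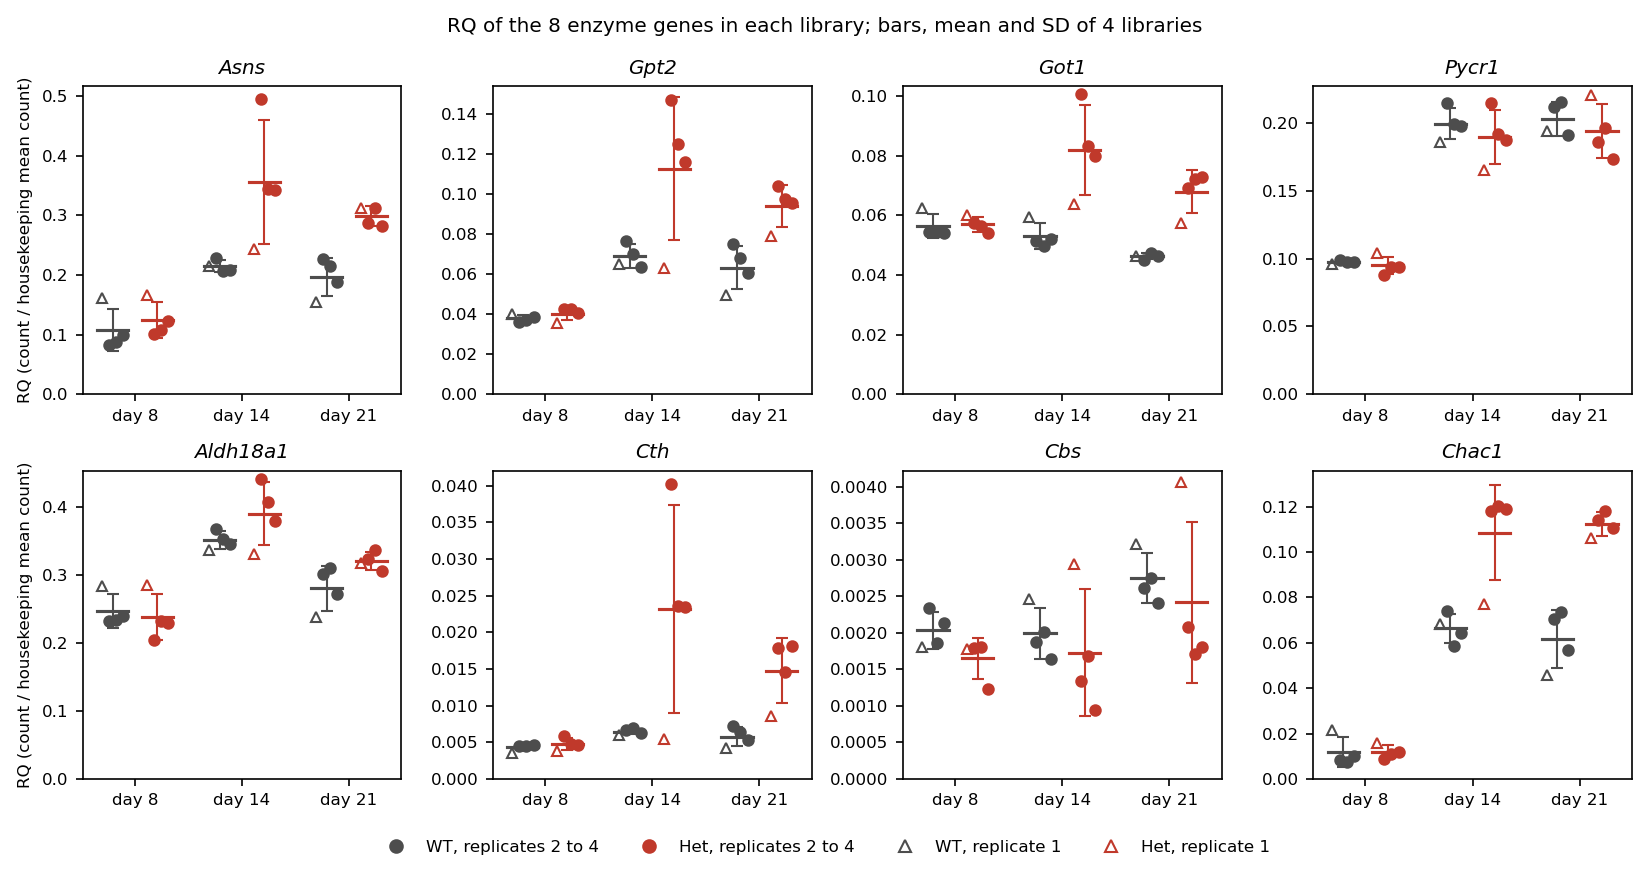
RQ (count over the geometric mean count of 4 housekeeping genes; linear axes from 0) of each gene in each of the 24 libraries by day, WT in gray and Het in red, replicate 1 as open triangles and replicates 2 to 4 as filled circles, with mean and SD of 4 libraries. *Asns*, *Gpt2*, *Got1*, *Cth* and *Chac1* have most or all Het points above the WT points at days 14 and 21, while the genotypes overlap at day 8, and the Het day 14 triangle is the lowest Het point of that day.

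*Asns* (chromosome 6, 7675169 to 7693254) had an RQ of 0.215, 0.228, 0.207 and 0.207 in WT replicates 1 to 4 at day 14 and of 0.155, 0.226, 0.215 and 0.188 at day 21. In Het it was 0.243, 0.496, 0.344 and 0.342 at day 14 and 0.313, 0.287, 0.312 and 0.282 at day 21. The genotypes did not overlap, and the highest value was Het day 14 replicate 2. The ratio of mean RQ was 1.6, with 1.5 within replicate 1 and 1.62 within replicates 2 to 4. The two-sided exact permutation p was 0.000155, the smallest that 8 against 8 libraries allow when day and replicate number are ignored. With genotypes swapped only within pairs of one day and replicate number, the exact permutation p was 0.00781. The edgeR log2 fold change was 0.67 ± 0.14 (SE, adjusted p = 0.00492).

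*Gpt2* (chromosome 8, 85492576 to 85527560) had an RQ of 0.0650, 0.0767, 0.0702 and 0.0636 in WT replicates 1 to 4 at day 14 and of 0.0496, 0.0748, 0.0678 and 0.0607 at day 21. In Het it was 0.0628, 0.147, 0.125 and 0.116 at day 14 and 0.0792, 0.104, 0.0974 and 0.0954 at day 21. Het day 14 replicate 1 lay among the WT libraries and the other 7 above all of them. The ratio was 1.56 (exact permutation p = 0.00186), with 1.24 within replicate 1 and 1.65 within replicates 2 to 4, and the edgeR log2 fold change was 0.64 ± 0.12 (adjusted p = 0.00190).

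*Got1* (chromosome 19, 43499752 to 43524605) had an RQ of 0.0596, 0.0514, 0.0496 and 0.0520 in WT replicates 1 to 4 at day 14 and of 0.0465, 0.0452, 0.0474 and 0.0462 at day 21. In Het it was 0.0638, 0.101, 0.0833 and 0.0798 at day 14 and 0.0575, 0.0692, 0.0723 and 0.0728 at day 21. The groups met at 1 point, where Het day 21 replicate 1 lay below WT day 14 replicate 1. The ratio was 1.51 (exact permutation p = 0.000311), with 1.14 within replicate 1 and 1.64 within replicates 2 to 4. Its edgeR log2 fold change was 0.59 ± 0.07 (adjusted p = 2.77e-05).

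Neither proline gene was called. *Aldh18a1* (chromosome 19, 40550257 to 40588463) ranged from 0.238 to 0.368 (median 0.323) in WT and from 0.305 to 0.441 (median 0.333) in Het at days 14 and 21, with overlap. Its ratio was 1.13 (exact permutation p = 0.111), and Het was higher in 7 of 8 pairs of one day and replicate number (exact permutation p = 0.0156 when genotypes were swapped within pairs). This pairing is weak, since same-numbered libraries of replicates 2 to 4 hardly deviated together (median correlation 0.0615). The ratio was 1.13 both within replicate 1 and within replicates 2 to 4. The edgeR log2 fold change was 0.17 ± 0.07 (adjusted p = 0.107). It was called under the other scalings, at 0.22 with TMM (adjusted p = 0.0222) and 0.26 with the total count (adjusted p = 0.00572), and without replicate 1 (0.17, adjusted p = 0.0107).

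*Pycr1* (chromosome 11, 120635712 to 120643769) ranged from 0.186 to 0.216 (median 0.199) in WT and from 0.165 to 0.221 (median 0.190) in Het. Both ends of the Het range came from replicate 1, on days 14 and 21. The ratio was 0.953 (exact permutation p = 0.243), with 1.01 within replicate 1 and 0.934 within replicates 2 to 4. The 95% interval of the log2 fold change, −0.19 to 0.05, contained 0, and the point value −0.07 became 0.02 with the total count as scale (adjusted p = 0.435 and 0.824). A match to TGATGNAAN lay in the windows of *Asns*, *Got1* and *Chac1*, called higher in Het, and of *Pycr1*, not called. It was absent from the windows of *Gpt2*, called higher, and of *Aldh18a1* and *Cbs*, not called. A relation between match and call was not tested, and sequence outside these windows was not searched.

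The cysteine genes *Cbs* and *Cth* gave opposite point values. *Cth* (chromosome 3, 157894248 to 157925077) had an RQ of 0.00603, 0.00664, 0.00690 and 0.00626 in WT at day 14 and of 0.00416, 0.00723, 0.00635 and 0.00536 at day 21. In Het it was 0.00544, 0.0402, 0.0236 and 0.0234 at day 14 and 0.00861, 0.0178, 0.0145 and 0.0182 at day 21. Apart from Het day 14 replicate 1, which had 48 counts and lay among the WT values, the Het libraries exceeded all WT libraries. The ratio of 3.10 (exact permutation p = 0.00124) was the largest of the 8 genes, with 1.38 within replicate 1 and 3.56 within replicates 2 to 4. The edgeR log2 fold change was 1.6 ± 0.25 (adjusted p = 0.000477).

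*Cbs* (chromosome 17, 31608894 to 31637238), the step before *Cth*, ranged from 0.00164 to 0.00321 (median 0.00244) in WT and from 0.000945 to 0.00406 (median 0.00176) in Het. The ratio was 0.874 (exact permutation p = 0.468), and the log2 fold change was −0.22 (95% interval −0.64 to 0.20, adjusted p = 0.507). Replicate 1 and the others differed in direction, with a ratio of 1.23 within replicate 1 and 0.720 within replicates 2 to 4. Without replicate 1, *Cbs* was called lower (log2 fold change −0.46, adjusted p = 0.0154).

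*Chac1* (chromosome 2, 119351229 to 119354381) had an RQ of 0.0682, 0.0741, 0.0587 and 0.0644 in WT at day 14 and of 0.0459, 0.0704, 0.0736 and 0.0567 at day 21. In Het it was 0.0770, 0.118, 0.120 and 0.119 at day 14 and 0.106, 0.114, 0.118 and 0.111 at day 21. Het day 14 replicate 1 was again the lowest Het library, and all 8 were above every WT library. The ratio was 1.72 (exact permutation p = 0.000155), with 1.6 within replicate 1 and 1.76 within replicates 2 to 4, and the edgeR log2 fold change was 0.79 ± 0.17 (adjusted p = 0.00433).

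These late calls depended on which wells entered more than on the scale. Leaving out any 1 of the 24 libraries left at least 5 members called, and 6 without Het day 14 replicate 1. Leaving out all 6 libraries of replicate 2, 3 or 4 left 3 (*Cth*, *Gpt2*, *Got1*), 2 (*Cth*, *Got1*) and 1 (*Got1*), while the log2 fold change of *Asns* stayed at 0.63 to 0.68 and that of *Chac1* at 0.74 to 0.83. Over all genes the same steps called 239, 361 and 88, against 3098 with all libraries, 4990 with the replicate number as a block and 8228 without replicate 1. Under TMM scaling 2330 genes were higher and 1579 lower and under the total count 3318 and 966, against 1465 and 1633 on the housekeeping scale.

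Each day was also tested alone. At day 8 none of the 8 members was called (0 of 8, where 0.641% of all genes were called in either direction, or 317 genes in place of 130 with the replicate block), and DESeq2's Wald test called 0 as well. No member had an unadjusted edgeR p under 0.05 at day 8, where 2053 of the 20287 genes tested did. The log2 fold changes of the members ran from −0.31 for *Cbs* to 0.21 for *Asns*. At day 14, *Asns*, *Gpt2*, *Got1* and *Cth* were called higher (4 of 8, background 1.96%), with log2 fold changes of 0.73 (adjusted p = 0.0485), 0.71 (0.0282), 0.63 (0.00251) and 1.85 (0.00868). *Chac1* had 0.71 (adjusted p = 0.0861) at day 14. At day 21 only *Got1* was called (1 of 8, background 0.675%), at 0.56 (adjusted p = 0.00820), while *Asns*, *Gpt2*, *Cth* and *Chac1* had 0.61, 0.57, 1.35 and 0.86 without a call.

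The single-day counts were sensitive to the fit. With the replicate block, 4 members were called at day 21, *Gpt2* (0.58, adjusted p = 0.0176), *Cth* (1.35, adjusted p = 0.00728) and *Chac1* (0.86, adjusted p = 0.0424) beside *Got1*, and the genes called rose from 192 to 956 (from 709 to 1974 at day 14). Without replicate 1, 6 members were called at day 14 and 5 at day 21, where 29.1% and 24.2% of all genes were. Without replicate 2, 3 or 4 there were 0 members on either day. These 3 fits called 9, 15 and 6 of all genes at day 14 and 15, 6 and 4 at day 21. Leaving out 1 library gave 2 to 5 members at day 14 and 1 to 4 at day 21, with 4 at day 21 without Het day 14 or Het day 21 replicate 1. At day 14 there were 2 without WT replicate 2, 3 or 4 or Het replicate 2 or 4. With 4 libraries per genotype, the exact permutation test cannot give a p below 0.0286. It gave this value, without overlap between genotypes, for *Asns*, *Got1* and *Chac1* at day 14 and for these, *Gpt2* and *Cth* at day 21. The share of all genes without overlap on a single day was not computed, so these are values of single genes.

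**Figure D2:**
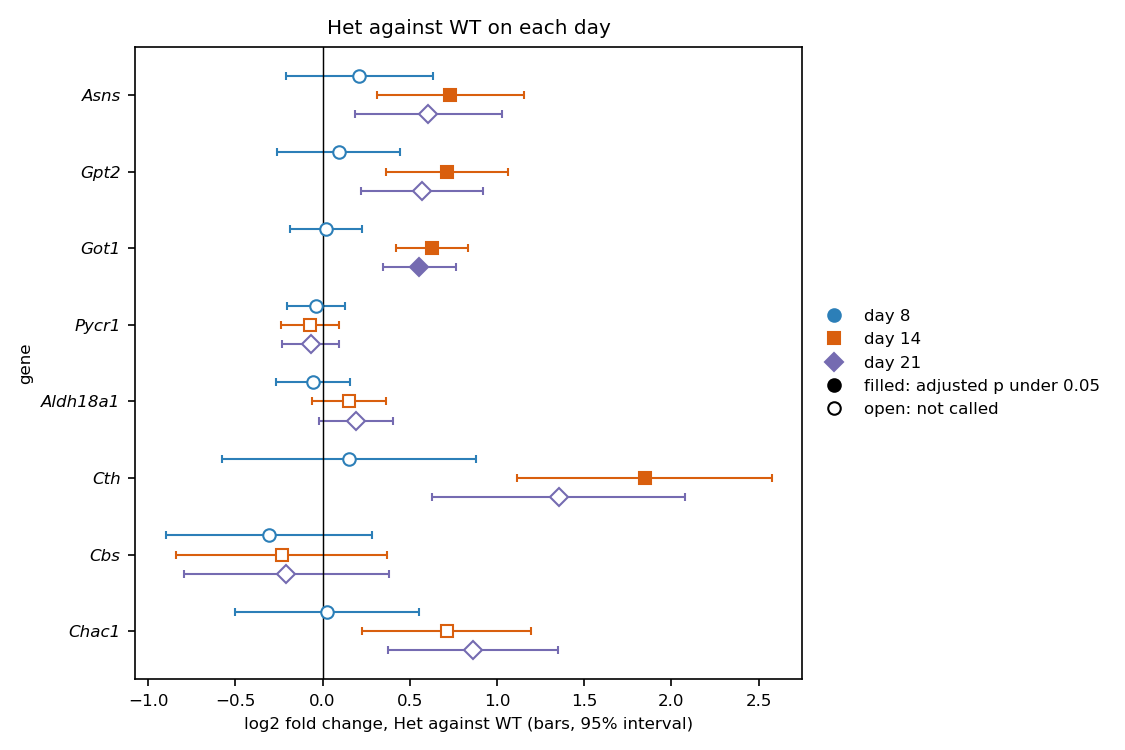
Log2 fold change of Het against WT (edgeR, housekeeping scale) for each gene at days 8, 14 and 21, with 95% intervals and filled symbols where the adjusted p is under 0.05. *Got1* is filled at days 14 and 21, *Asns*, *Gpt2* and *Cth* at day 14, and every day 8 symbol is open.

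The difference between the late and the day 8 effect of the genotype was tested directly. No member was called (0 of 8, with 0.177% of all genes called, 36 genes, or 66 with the replicate block). The nearest was *Got1*, whose effect was larger by 0.57 on the log2 scale (95% interval 0.32 to 0.83, adjusted p = 0.0622), followed by *Cth* with 1.45 (0.56 to 2.34, adjusted p = 0.383). *Cth*, *Gpt2*, *Got1* and *Chac1* had an unadjusted edgeR p under 0.05, at 0.00284, 0.0147, 0.000123 and 0.0199, as did 1132 of the 20287 genes tested. *Got1* was called by DESeq2's Wald test (0.54, adjusted p = 0.0203), and *Got1*, *Gpt2* and *Cth* were called when the single library Het day 14 replicate 1 was left out (adjusted p = 0.00490, 0.0304 and 0.00698). Between day 21 and day 14 the effect of the genotype gave 0 members, as it gave 0% of all genes (451 genes at an unadjusted p under 0.05, and 0 members by DESeq2), with differences from −0.49 for *Cth* to 0.15 for *Chac1*.

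From day 8 to day 14, when the cultures passed from recent confluency to matrix synthesis, most of these transcripts rose in both genotypes. In WT, *Chac1* rose by 2.53 ± 0.25 on the log2 scale (SE, adjusted p = 1.68e-07), *Pycr1* by 1.03 ± 0.08 (adjusted p = 4.72e-09), *Asns* by 1.00 ± 0.20 (adjusted p = 0.000672), *Gpt2* by 0.87 ± 0.17 (adjusted p = 0.000435) and *Aldh18a1* by 0.50 ± 0.10 (adjusted p = 0.000584). Thus 5 of 8 were called higher and 0 lower, where 23.6% and 7.36% of all genes were. *Cth* (0.58, adjusted p = 0.232, or 0.0312 without replicate 1), *Got1* (−0.08, adjusted p = 0.586) and *Cbs* (−0.04, adjusted p = 0.941) were not called in WT.

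In Het, 7 of 8 were called higher and 0 lower (background 26.5% and 9.09%). *Chac1* rose by 3.21 ± 0.26, *Cth* by 2.27 ± 0.36, *Asns* by 1.52 ± 0.21, *Gpt2* by 1.48 ± 0.17, *Pycr1* by 1.00 ± 0.08, *Aldh18a1* by 0.71 ± 0.10 and *Got1* by 0.53 ± 0.10, with adjusted p from 5.10e-09 to 0.000265. The RQ of *Pycr1*, the last step to proline, was 0.0961 to 0.0991 in WT and 0.0882 to 0.104 in Het at day 8, and 0.186 to 0.214 and 0.165 to 0.214 at day 14. Its difference of the genotype effect, days 14 and 21 against day 8, was −0.03 (95% interval −0.23 to 0.17). *Cbs* was at 0.03 in Het (adjusted p = 0.958). The median log2 fold change of all genes in this step was 0.12 on the housekeeping scale in either genotype and −0.01 and −0.04 under TMM and −0.16 and −0.14 under the total count in WT and Het. TMM gave 3502 higher and 3629 lower genes in WT and 3640 and 4152 in Het, against 4778 and 1494 and 5371 and 1845 on the housekeeping scale, with the same members called. With the total count as scale, 2604 genes were higher and 6363 lower in WT and 2988 and 5900 in Het, WT *Aldh18a1* was no longer called (adjusted p = 0.0567) and WT *Got1* was called lower (adjusted p = 0.00517).

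**Figure D3:**
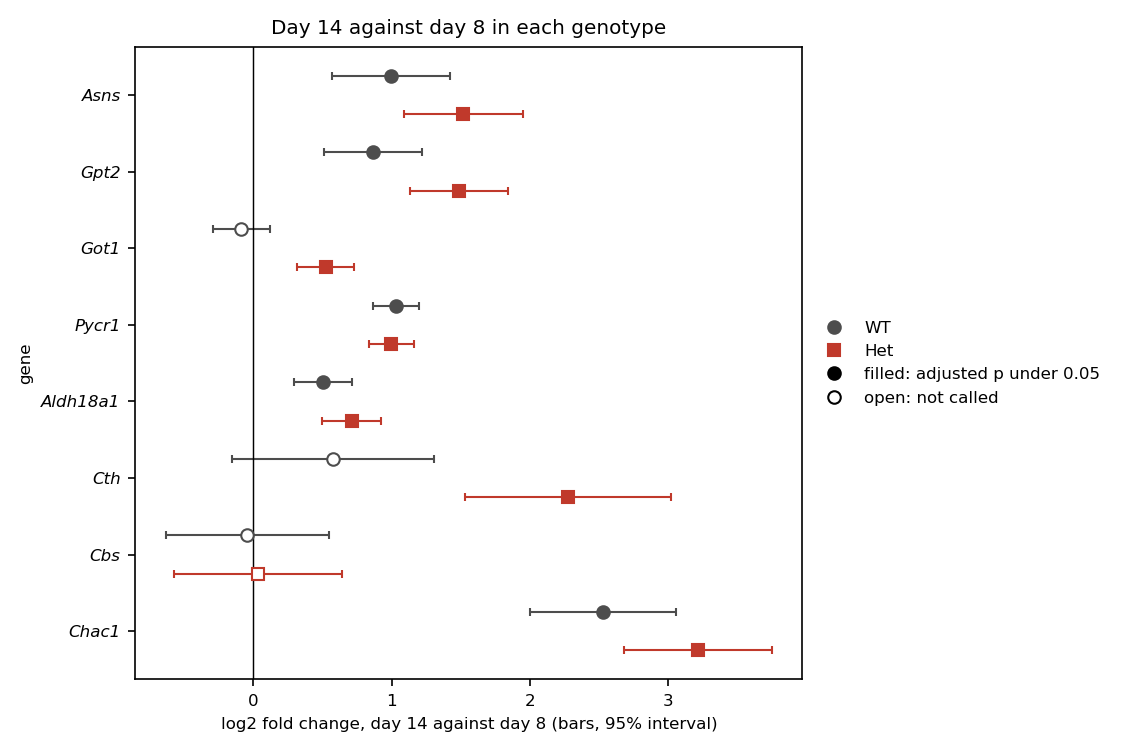
Log2 fold change from day 8 to day 14 in WT (gray circles) and Het (red squares) for each gene, with 95% intervals and filled symbols where the adjusted p is under 0.05. *Pycr1* lies at 1.03 and 1.00, while *Got1* and *Cth* are filled in Het alone; the difference between genotypes in this step was not tested.

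From day 14 to day 21 no member was called in WT (8.62% of all genes were, in either direction) or in Het (4.79%). No member but *Aldh18a1* had an unadjusted edgeR p under 0.05 in WT (0.00447), and *Aldh18a1* and *Got1* did in Het (0.0113 and 0.0133). Of the 20287 genes tested, 4206 in WT and 3977 in Het had such a p. *Aldh18a1* had −0.32 in WT (adjusted p = 0.0511) and −0.28 in Het (0.117), and it was called lower in WT by DESeq2's Wald test and with the replicate block, in which 2683 genes were called in place of 1748. In Het, DESeq2 called *Aldh18a1* and *Got1* lower, and the block called 1706 genes in place of 972 and no member. The fit without replicate 1 called *Asns*, *Gpt2*, *Got1*, *Aldh18a1* and *Cth* lower. Of the 19686 genes tested in that fit, 18.8% were called, 1460 lower and 2242 higher.

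Ratios of related genes within a library, which do not depend on the scale, were compared for 5 pairs at days 14 and 21 (5 exact permutation tests, unadjusted). The log2 count ratio of *Gpt2* to *Gpt*, the cytosolic alanine aminotransferase, was higher in Het by 0.49 ± 0.13 (SE, exact permutation p = 0.000311, 8 of 8 pairs), with 0.33 within replicate 1 and 0.55 within replicates 2 to 4. That of *Got1* to its mitochondrial counterpart *Got2* was higher by 0.44 ± 0.09 (exact permutation p = 0.000466), with 0.04 within replicate 1 and 0.57 within replicates 2 to 4. *Got2* shares 434 exon bases with *Gm45760* on the opposite strand, and whether counting used strand is not given in the sources used here, so that value is uncertain. *Gpt* rested on few reads, with 32 to 118 counts per library in WT and 28 to 123 in Het at these days.

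Of the 5 ratios, that of the glutathione-cleaving enzymes was the one without overlap between genotypes. The ratio of *Chac1* to *Chac2*, a related glutathione-cleaving enzyme, was higher in Het by 0.96 ± 0.13 (exact permutation p = 0.000155), and by 1.38 within replicate 1 and 0.82 within replicates 2 to 4. *Chac2* had 109 to 242 counts per library in WT and 44 to 271 in Het. For *Cth* to *Cbs* the difference was 1.73 ± 0.55 (exact permutation p = 0.00746), carried by replicates 2 to 4 (2.25, against 0.15 within replicate 1). For *Aldh18a1* to *Aldh4a1*, an enzyme of proline breakdown, it was 0.29 ± 0.13 (exact permutation p = 0.0320), with 0.16 within replicate 1 and 0.34 within replicates 2 to 4, but *Aldh4a1* shares 1595 exon bases with the readthrough gene *Gm21969*. At day 8 the 5 differences ran from −0.05 to 0.45, with exact permutation p from 0.0857 to 0.514.

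**Figure D4:**
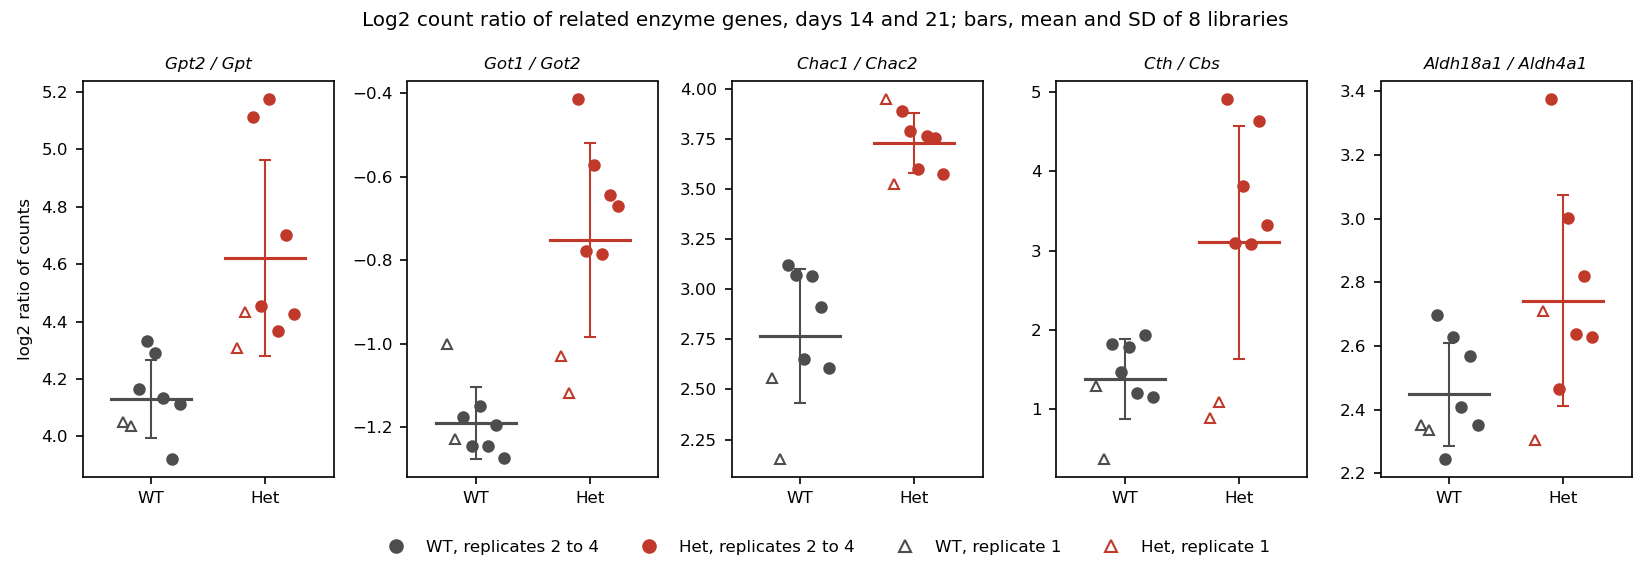
Log2 ratio of the counts of related enzyme genes in each WT (gray) and Het (red) library of days 14 and 21, replicate 1 as open triangles, with mean and SD of 8 libraries; each panel has its own axis. *Chac1* to *Chac2* does not overlap between genotypes, and for *Got1* to *Got2* and *Cth* to *Cbs* the Het triangles lie among the WT points.

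Other enzymes of the same pathways were examined at days 14 and 21. Of 44 in 5 lists, 40 were tested, 4 were called higher and 4 lower (10% each way, where 7.22% and 8.05% of all genes were), with a median log2 fold change of −0.02. These shares are near the background, and the calls below are given as values of single genes. Around asparagine, aspartate and alanine (8 tested), *Aspg*, an asparaginase, was lower (−0.89, adjusted p = 0.00716), and *Adsl*, which releases fumarate in purine synthesis (0.17, adjusted p = 0.0144), and *Got2* (0.14, adjusted p = 0.0115) were higher. Of 6 other proline genes only *Oat*, ornithine aminotransferase, was called (−0.20, adjusted p = 0.0222). *Csad*, on the route from cysteine to taurine, was the one call among 11 methionine and cysteine genes (−0.17, adjusted p = 0.0455).

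Among 11 glutathione genes, *Gclm*, a subunit of the enzyme that limits glutathione synthesis, was higher (0.36, adjusted p = 0.0444) and *Dpep1*, a dipeptidase, lower (−0.57, adjusted p = 0.0425). *Glul*, glutamine synthetase, was the one call among 4 glutamate and glutamine genes (0.37, adjusted p = 0.00719). Of the 8 tRNA synthetases for these amino acids, the cytosolic *Aars* (0.42, adjusted p = 0.0181) and *Nars* (0.37, adjusted p = 0.0465) were called higher, for alanine and asparagine, and those for proline and cysteine, *Eprs* (0.11) and *Cars* (0.27), were not. Of 9 transporters 4 were higher and 0 lower (background 7.22% and 8.05%), led by *Slc7a11*, the cystine importer (1.54 ± 0.30, adjusted p = 0.00275), its partner chain *Slc3a2* (0.64, adjusted p = 0.000429) and the neutral amino acid carrier *Slc38a1* (0.52, adjusted p = 0.00595).

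Of 9 ISR regulators 8 were higher and 0 lower (background 7.22% and 8.05%). *Trib3*, a pseudokinase that binds ATF4, had 2.78 ± 0.15 (adjusted p = 2.08e-10), *Ddit3*, which encodes CHOP, 1.2 ± 0.10 (adjusted p = 4.08e-07) and *Ppp1r15a*, which encodes the eIF2α phosphatase subunit GADD34, 0.70 ± 0.10 (adjusted p = 0.000174). The *Atf4* transcript itself had 0.26 ± 0.12 (adjusted p = 0.135). The median of these 9 was 0.67, against 0.62 for the 8 enzyme genes and −0.05 for all genes. At day 8 the same tests called 0 of the 40 other enzymes, with a median of −0.09.

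**Figure D5:**
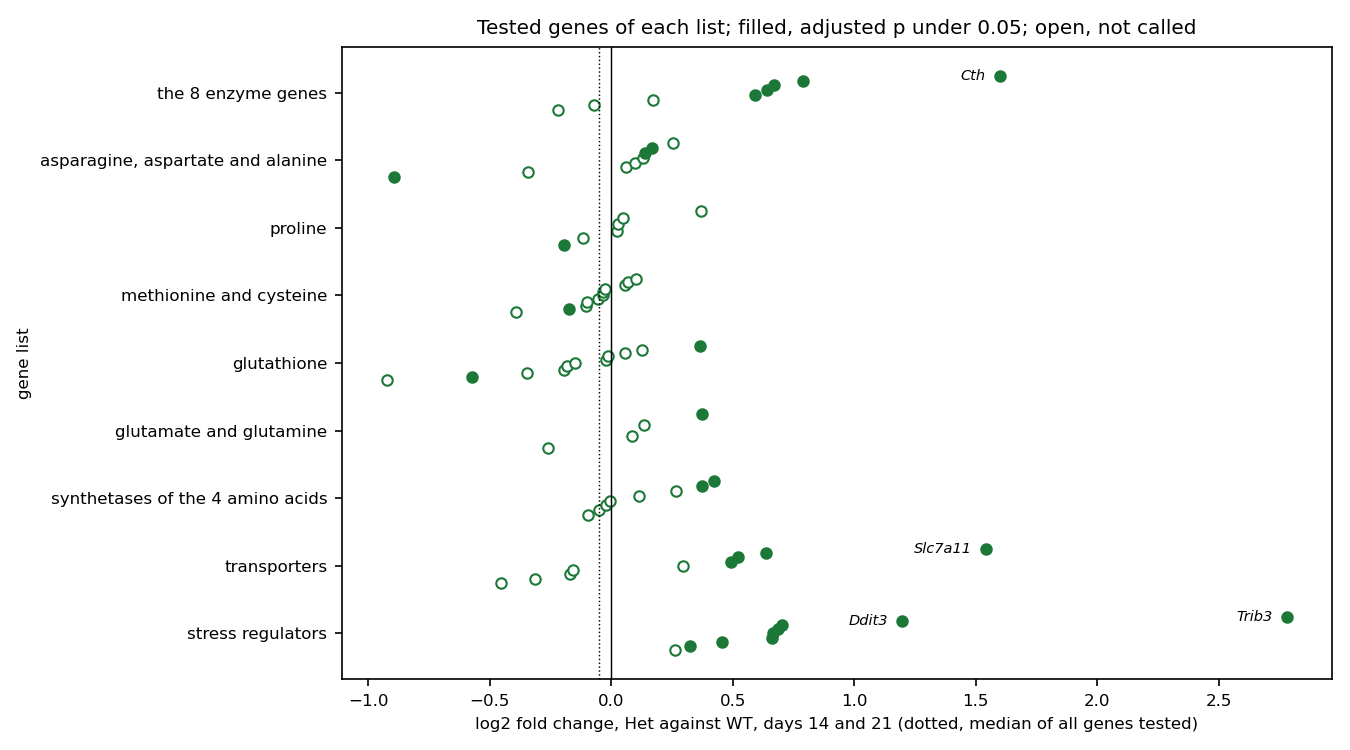
Log2 fold change of Het against WT at days 14 and 21 for every tested gene of each list, filled where the adjusted p is under 0.05; the dotted line is the median of all genes tested (−0.05). The 5 filled enzyme genes lie between 0.59 and 1.6, the other enzymes mostly near 0, and the ISR regulators to the right.

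Over the 24 libraries, the genes whose centered log2 RQ profile was nearest (root mean square difference, among 14889 other genes, 14890 for *Cbs*, with a mean of at least 50 counts) were *Eif4ebp1*, *Ccdc24* and *Pck2* for *Asns* (0.163 to 0.186) and *Slc7a5*, *Ccdc24* and *Eif4ebp1* for *Gpt2* (0.206 to 0.234). For *Got1* they were *Wars*, *Gsto1* and *Utp14a* (0.109 to 0.126), and for *Aldh18a1* the tRNA synthetase genes *Gars* and *Tars* with *Siah2* between them (0.113 to 0.132). *Pycr1* lay nearest to *Slc37a4*, *Mef2d* and *Plcd1* (0.0964 to 0.117). *Cth* had *Hsd17b1*, *Gpt2* and *Slc7a5* nearest (0.431 to 0.452) and *Chac1* had *Cyb5r2*, *Vit* and *Aldh1l2* (0.453 to 0.475). Nearest to *Cbs* were *Gpd1*, *9130019O22Rik* and *Cbr2* (0.262 to 0.265). The root mean square variation of *Cth*, *Chac1* and *Cbs* themselves was 0.944, 1.44 and 0.442, so distances of different genes are not directly comparable. These distances are descriptions over libraries that share genotype, day and scale, and carry no test.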

How the data were processed

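Bulk RNASeq of 24 wells (2 genotypes, 3 days, 4 replicates) was analysed. Each library came as a file of gene-level read counts that the authors deposited without normalization, made from polyadenylated RNA in TruSeq libraries without molecular identifiers; the submitters' processing notes name cutadapt 2.5, STAR 2.73a, Subread featureCounts 1.6.4 and mm10. How strand and multi-mapped reads were treated is not given in the sources used here. Coordinates are from GENCODE mouse release 21 (GRCm38), which held 54587 of the 55335 gene identifiers with the same version.

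Following the study, RQ was each count over the geometric mean of 4 housekeeping counts (*Actg1*, *Actb*, *Mrfap1*, *Sdha*), days 14 and 21 were combined, and changes of over 20% were considered. Its t-test and Mann-Whitney U-test were replaced with exact permutation tests. All genes were fitted with edgeR 4.0.16 (R 4.3.3; glmQLFit, 6 group means, filterByExpr, housekeeping scale), with Benjamini-Hochberg adjustment over the 20287 genes tested, threshold 0.05; DESeq2 1.42.0, TMM, DESeq2 size factors, the total count, no filter, each housekeeping gene left out, a replicate block, replicate 1 as a covariate and each replicate number left out were alternatives, and each library left out was added after seeing the data. Tested on simulated data for Het against WT at days 14 and 21 (20287 genes, dispersion 0.03, no differences between replicate numbers), edgeR and DESeq2 recovered 100% of 50 genes at each log2 change of −2, −1, 1 and 2, with 15 and 32 false calls. Totals were 17140202 to 59734231 counts, and the 36 replicate pairs differed by more than sampling noise (chi-square per degree of freedom at least 4.78).

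The paper describes preparations from different litters, plated at different densities and oxygen levels, with 6 wells per genotype late; the labels list 8 and do not name preparations, and all 8 were used. Same-numbered WT and Het libraries deviated together (12 correlations, 0.199 to 0.788), among replicates 2 to 4 alone hardly (median 0.0615), so the numbers pair the samples mostly through replicate 1. The members and lists were chosen with earlier results of these data known. Named were all members, per list the 3 largest calls late, the second gene of each pair, the 3 nearest profiles per member and markers; *Atf4*, *Eprs* and *Cars* were added after their values were seen. The ratio of 1 further pair of related genes was tested, which makes 6 such tests, and is not reported here.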

Additional observations from a re-analysis of the deposited data

Results flagged for a closer look

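In groups of 4 libraries a value was listed when its gap to the nearest of the others exceeded Dixon's 95% limit; 5 of 48 groups met this (10.4%), where chance gives about 1 in 20. In WT at day 8, replicate 1 had an RQ of 0.0623 for *Got1* (the others 0.0542 to 0.0544) and of 0.284 for *Aldh18a1* (0.231 to 0.240). In Het at day 14, replicate 1 had an RQ of 0.0770 for *Chac1* (0.118 to 0.120). *Cbs* was at 0.00123 in Het day 8 replicate 4 (the others 0.00178 to 0.00180) and at 0.00406 in Het day 21 replicate 1 (0.00171 to 0.00208), on 38 and 41 counts. Of the 5 values, 4 belong to replicate 1.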

How the results depend on the processing

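The late log2 fold changes of the 8 genes kept their direction and side of the threshold in 295 of 312 alternative values. Most of these values came from fits that left out a single library, day 8 libraries included, and so changed little. Calls were lost in 9 values, all from the fits without replicate 2, 3 or 4, and gained in 7. *Pycr1* reversed under the total count, to 0.019 (RQ ratio 1.01). *Cbs* from day 8 to day 14 reversed in Het to −0.14 with TMM, −0.11 with DESeq2 size factors, −0.23 with the total count, −0.036 with the replicate block, −0.038 with replicate 1 as covariate, and −0.17 with DESeq2, and ranged from −0.26 to 0.18 with a replicate left out. In WT the same change ranged from −0.20 to 0.070, above 0 without replicate 2 or 4. The cause was not tested; *Cbs* had 18 to 64 counts per library.

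Replicate block, replicate 1 as covariate and DESeq2's Wald test called 4990, 5356 and 4829 genes late, 317, 393 and 522 at day 8, 1974, 2371 and 2294 at day 14, 956, 1282 and 1549 at day 21, 66, 71 and 96 for the difference against day 8, 2683, 2909 and 2958 from day 14 to 21 in WT and 1706, 2056 and 2070 in Het. TMM, DESeq2 size factors, the total count, no filter and the scale without *Sdha* called 1289, 1386, 1740, 263 and 352 genes at day 14 and 420, 515, 857, 92 and 100 at day 21, and no filter 598 from day 14 to 21 in Het. Members called at day 21 numbered 2, 3 and 5 with these scalings, 4 with the block, 4 with the covariate and 5 with DESeq2. For the difference against day 8 there was 1 with the covariate, DESeq2 or the scale without *Actg1*. From day 14 to 21 in WT there was 1 with the 3 scalings, the block, the covariate, DESeq2 or without *Actg1*, and in Het 1 with the 3 scalings and 2 with DESeq2. From day 8 to 14 the block called 7650 genes in WT and 8603 in Het, in place of 6272 and 7216. Beyond the changes given here and above, it changed no other call of the 8 genes, and it was not examined for the other genes named.

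Day 14 alone gave RQ ratios of 1.64 for *Gpt2* and 3.59 for *Cth* (exact permutation p = 0.143 each), 3 genes past the RQ rule, and log2 ratio differences of 0.46 for *Got1* to *Got2*, 1.85 for *Cth* to *Cbs* and 0.31 for *Aldh18a1* to *Aldh4a1*, which no longer passed (exact permutation p = 0.0571, 0.143 and 0.257). Day 21 alone gave 1.6 for *Cth* to *Cbs* (exact permutation p = 0.114). Without replicate 3 or 4 the exact permutation p was 0.0519 or 0.0541 for *Cth* to *Cbs* and 0.0909 or 0.104 for *Aldh18a1* to *Aldh4a1*. *Aldh18a1* passed with the total count (1.2, exact permutation p = 0.0333) and with swaps within pairs (replicate block, 1.13, p = 0.0156).

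Leaving out a replicate number gave 88 to 8228 genes late and 0 to 3412 at day 8. It gave 6 to 5723 genes at day 14 and 4 to 4767 at day 21. For the difference against day 8 it gave 0 to 929 genes, and for day 21 against day 14 it gave 0 to 13. Gene counts with 1 library left out are not given here. Leaving out a replicate number or 1 library gave 1 to 7 members late and 0 to 6 at day 14. It gave 0 to 5 members at day 21 and 0 to 3 for the difference against day 8. With a replicate number left out, day 8 to 14 gave 3689 to 8804 genes and 5 to 6 members in WT. In Het this step gave 4564 to 10813 genes. Day 14 to 21 gave 34 to 3527 genes and 0 to 1 members in WT and 28 to 3702 and 0 to 5 in Het. With a replicate number or 1 library left out, RQ ratios ranged from 1.09 to 1.15 for *Aldh18a1* and 0.720 to 0.942 for *Cbs*. From 5 to 6 members were then past the RQ rule. Log2 ratio differences with a replicate number left out were 1.49 to 2.25 for *Cth* to *Cbs* and 0.24 to 0.34 for *Aldh18a1* to *Aldh4a1*. Low counts of *Cbs* and *Cth* limit what these libraries can show of them, and p-values measure the spread between wells of pooled cells.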
